A study of Mus musculus with 1 sample.

Results

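The genes of the NFκB system examined here were 10 in number: the subunits Nfkb1, Rela, Rel, Nfkb2 and Relb, the IκB genes Nfkbia, Nfkbib, Nfkbie and Nfkbiz, and Tnfaip3, which encodes the deubiquitinase A20. They were taken by gene symbol from a table of 23282 rows, and all 10 had exactly 1 row. The table came from 1 RNA-seq library of primary mixed glia grown from the ventral midbrain (VM) of ICR(CD-1) Outbred mice, labelled postnatal day 5. The cells carried no engineered allele, were kept in medium with 10% fetal bovine serum, were passaged with trypsin, and formed the control (Cont) arm of a study of the SGK1 inhibitor GSK650394; its column was named for the vehicle DMSO. Inhibitor-treated glia were not analysed here. How many pups contributed to the culture was not given in the sources used here. The single library allowed no replicate error and no test, so no order of neighbouring genes could be tested, and each ratio describes this library alone.

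NFκB is a set of dimeric transcription factors held inactive in unstimulated cells. In the canonical pathway, receptors such as those for TNF, IL-1 and bacterial products activate the IκB kinase (IKK) complex, IKK marks IκB proteins for destruction, and dimers such as p50 with RELA (p65) enter the nucleus. In the noncanonical pathway, the kinase NIK acts through IKKα to trigger processing of the Nfkb2 product p100 to p52, which pairs with RELB. Several inhibitor genes are themselves NFκB targets, so the pathway can dampen its own activity. In glia the pathway is best known for controlling cytokine and chemokine genes, and the study addressed it because SGK1 has been linked to phosphorylation of IKKβ.

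Values were the authors' normalised read counts, whole numbers that summed to 27569507. The number of reads behind them is unknown, so no counting interval is given. Genes reaching at least 10 were termed detected, which held for 15648 rows (67.2%). Because longer transcripts collect more reads, levels of different genes were compared only after division by exon length in kilobases (kb). The length was the union of all exons that GENCODE annotates for a gene. For a few genes this union contains long unspliced transcripts. The same level was therefore also computed over exons of transcripts matched to RefSeq, the catalogue that the study's methods name for counting. The median over detected genes was 102.4 per kb of annotated exon and 147 per kb of RefSeq exon.

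The cell markers placed the transcripts in a mixed culture. All 8 microglial markers were detected, from 425 (Tmem119) to 31364 (C1qa) per kb of annotated exon, and so were all 8 astrocyte markers, from 142 (Slc1a2) to 4083 (Gfap). The 6 mesenchymal markers ranged from 186 (Lum) to 12067 (Acta2). Lymphocyte markers were examined because Rel and Relb are well known in lymphocytes, and 3 of the 6 were detected. Cd3d had a value of 202, Lck of 66 and Ms4a1 of 16, and Cd3e was at 2. Neuronal and endothelial lists had medians of 8.05 and 9.24 per kb, with Slc17a6 and Tek listed at 0, and the oligodendrocyte-lineage list had a median of 91.4. In a bulk sample of this kind, fewer cells of a type and less RNA per cell cannot be told apart, and which cells supplied each NFκB transcript was not tested.

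All 10 genes were detected, against 67.2% of all rows, and 9 of the 10 lay above the median detected gene per kb under both lengths. Together they held 0.0676% of the summed values. Their median was 371 per kb of annotated exon, 3.62 times that of detected genes, and 557 per kb of RefSeq exon, 3.79 times. The exception was Rel, at 18.4 per kb under either length. Levels per kb of annotated exon spanned 49.2-fold from Rel to Nfkbia, the highest member on this scale only. Without Rel, the other 9 spanned 4.08-fold.

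**Figure D1:**
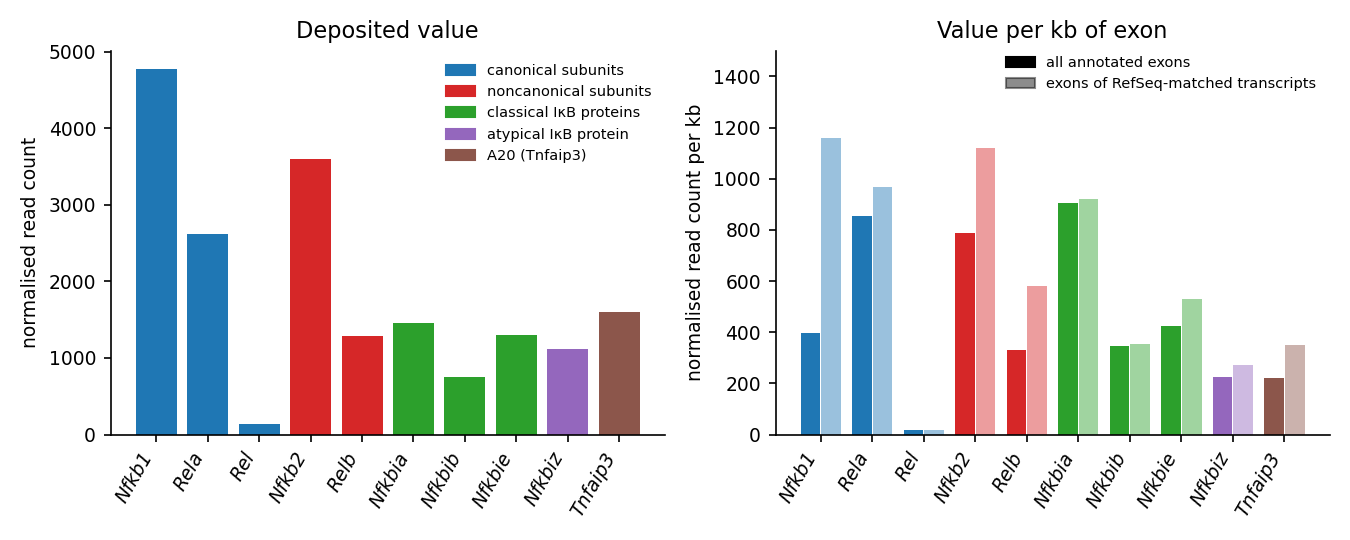
Deposited normalised read counts (left) and counts per kb of exon (right; dark bars, all annotated exons; pale bars, exons of RefSeq-matched transcripts) of the 10 NFκB genes in the control library, coloured by role. Nfkb1 is highest on the left at 4776, and its level per kb depends on the length used, 396 or 1160, while Rel is lowest in each panel.

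The canonical subunits were very unequal. Nfkb1 encodes p105, the precursor of the DNA-binding subunit p50, and lies on chromosome 3 (135584655 to 135691547, minus strand; coordinates of genes are GENCODE on GRCm38). It had a value of 4776, or 173 per 1000000 of the sum. Its annotated exons cover 12.1 kb but its RefSeq-matched transcript only 4.12 kb, so its level was 396 per kb of annotated exon and 1160 per kb of RefSeq exon. On the full annotation it stood below Nfkbia, Rela, Nfkb2 and Nfkbie. On RefSeq exons, the longest transcript, coding length and the undivided values it was the highest of the 10 genes.

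Rela encodes p65, the activating partner of p50, and lies on chromosome 19 (5637483 to 5648130, plus strand). Its value was 2623, which gave 854 per kb of annotated exon and 966 per kb of RefSeq exon. It was above 89.3% of detected genes on the first scale and 86.5% on the second. The order of Nfkb1 and Rela therefore depended on the length used. The Nfkb1 to Rela ratio was 0.464 per kb of annotated exon, the only scale with Rela higher. The ratio was 1.20 per kb of RefSeq exon, 1.19 per kb of the longest transcript, 1.03 per kb of coding length and 1.82 undivided.

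Rel encodes c-Rel, an activating subunit best known in lymphoid and myeloid cells, and lies on chromosome 11 (23736847 to 23770970, minus strand). Its value was 137, the lowest of the 10 and above 18.4% of detected genes per kb of annotated exon. Its single annotated transcript is 7.47 kb long, of which 1.76 kb is coding, and the level per kb of coding length was 77.7. Rela exceeded Rel 46.5-fold per kb of annotated exon, and between 20.5-fold and 52.6-fold per kb of the other lengths. Rel was the lowest of the 10 genes on all 5 scales computed, including the undivided values.

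The noncanonical subunits had a smaller summed level than the canonical ones, by a margin that depended on the length used. Nfkb2 encodes p100, which serves both as the precursor of p52 and as an inhibitor of RELB and other subunits, and lies on chromosome 19 (46304320 to 46312385, plus strand). It had a value of 3604, which was 786 per kb of annotated exon and 1120 per kb of RefSeq exon, above 88.4% and 88.3% of detected genes. Of its annotated exon length, 11.6% overlaps a noncoding gene and 6.52% overlaps Psd, both on the opposite strand; Psd had a value of 163. Relb encodes the partner of p52 and lies on chromosome 7 (19606217 to 19629438, minus strand). Its value of 1286 gave 331 per kb of annotated exon and 582 per kb of RefSeq exon. Nfkb2 exceeded Relb 2.38-fold on the first length and 1.92-fold on the second, and Relb exceeded Rel 18.04-fold and 31.7-fold. On the other scales Relb exceeded Rel by 9.39-fold (undivided values) to 21.4-fold (longest transcript).

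Summed over the canonical subunits, the level was 1268 per kb of annotated exon, against 1117 for the noncanonical pair. Nfkb2 and Relb thus made up 46.8% of the summed subunit level, and 44.2% per kb of RefSeq exon. This share ranged from 38.4% to 44.2% under the other lengths and for the undivided values, so the canonical sum was the larger on each scale. A summary by geometric means gave 73.5% because it weights the low Rel equally with the other genes. Genes for the precursors p105 and p100 together supplied 49.6% of the subunit sum per kb of annotated exon and 59.3% per kb of RefSeq exon.

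**Figure D2:**
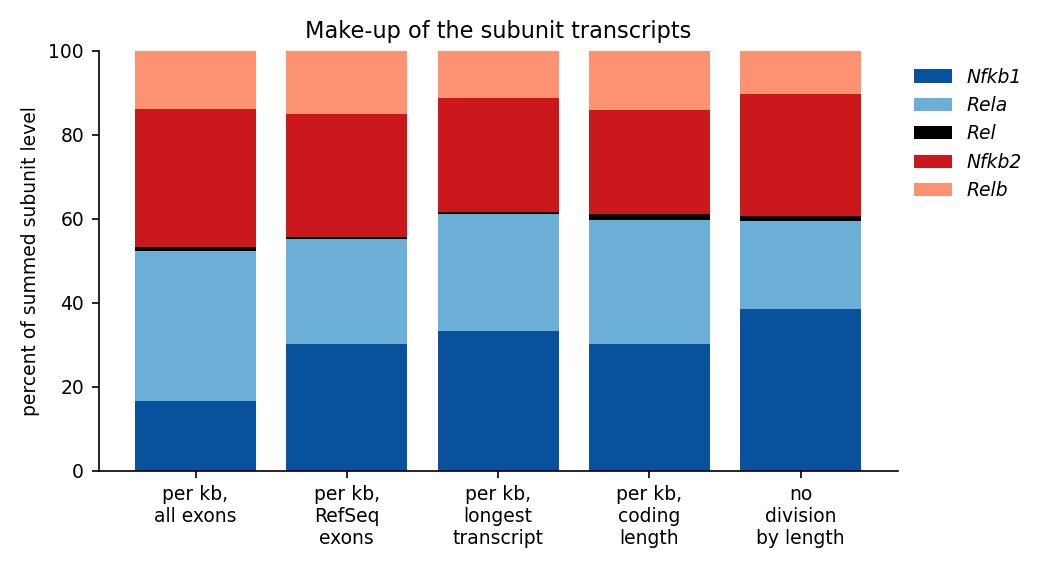
Percent of the summed level of the 5 subunit genes contributed by each (canonical in blue and black, noncanonical in red), for 4 choices of gene length and for undivided values. The noncanonical share lies below the canonical share in each bar, the Nfkb1 part ranges from 16.6% to 38.4%, and Rel stays at 1.43% or less.

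The classical IκB genes encode the ankyrin-repeat proteins that hold NFκB dimers in the cytosol. Nfkbia (IκBα, the main rapidly resynthesised inhibitor) lies on chromosome 12 (55489410 to 55492647, minus strand). It had a value of 1455 over 1.61 kb of annotated exon, and its level of 904 per kb was the highest of the 10, above 89.9% of detected genes. On RefSeq exons it was 922 per kb, below Nfkb1, Nfkb2 and Rela. Nfkbie (IκBε, also NFκB-inducible) lies on chromosome 17 (45555703 to 45563169, plus strand) and had a value of 1294, equal to 425 per kb of annotated exon and 531 per kb of RefSeq exon. Nfkbib (IκBβ, the more slowly turned over inhibitor) lies on chromosome 7 (28758251 to 28767512, minus strand) and had a value of 749, equal to 345 and 352 per kb. Exons of Nfkbib overlap opposite-strand exons of Ccer2 over 14.5% of its length and of Sirt2 over 1.94%, and the value of Sirt2 was 4686.

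The same order held within this class on all 5 scales, with Nfkbia above Nfkbie and Nfkbie above Nfkbib. Nfkbia made up 54.0% of the summed classical IκB level per kb of annotated exon, Nfkbie 25.4% and Nfkbib 20.6%. Nfkbia exceeded Nfkbib 2.62-fold under both lengths. The Nfkbia to Rela ratio was 1.06 per kb of annotated exon and 0.955 per kb of RefSeq exon, so their order depended on the length. The 3 classical IκB genes summed to 1674 per kb of annotated exon, 0.702 of the subunit sum, and this ratio was 0.469 per kb of RefSeq exon.

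The other feedback regulators were lower per kb. Nfkbiz encodes IκBζ, a nuclear, inducible member of the IκB family that can also act as a coactivator, and lies on chromosome 16 (55811375 to 55838899, minus strand). Its value was 1120, equal to 223 per kb of annotated exon and 271 per kb of RefSeq exon. Tnfaip3, the A20 gene, lies on chromosome 10 (19000910 to 19015657, minus strand), and A20 restrains the pathway upstream of IKK by editing ubiquitin chains. Its value was 1602, equal to 222 per kb of annotated exon and 349 per kb of RefSeq exon. Nfkbia exceeded Nfkbiz 4.05-fold and Tnfaip3 4.08-fold per kb of annotated exon, and 3.41-fold and 2.65-fold per kb of RefSeq exon. Undivided, the value of Tnfaip3 was above that of Nfkbia. The order of Nfkbiz and Tnfaip3 changed with the length, with a ratio of 1.01 per kb of annotated exon and 0.776 per kb of RefSeq exon.

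**Figure D3:**
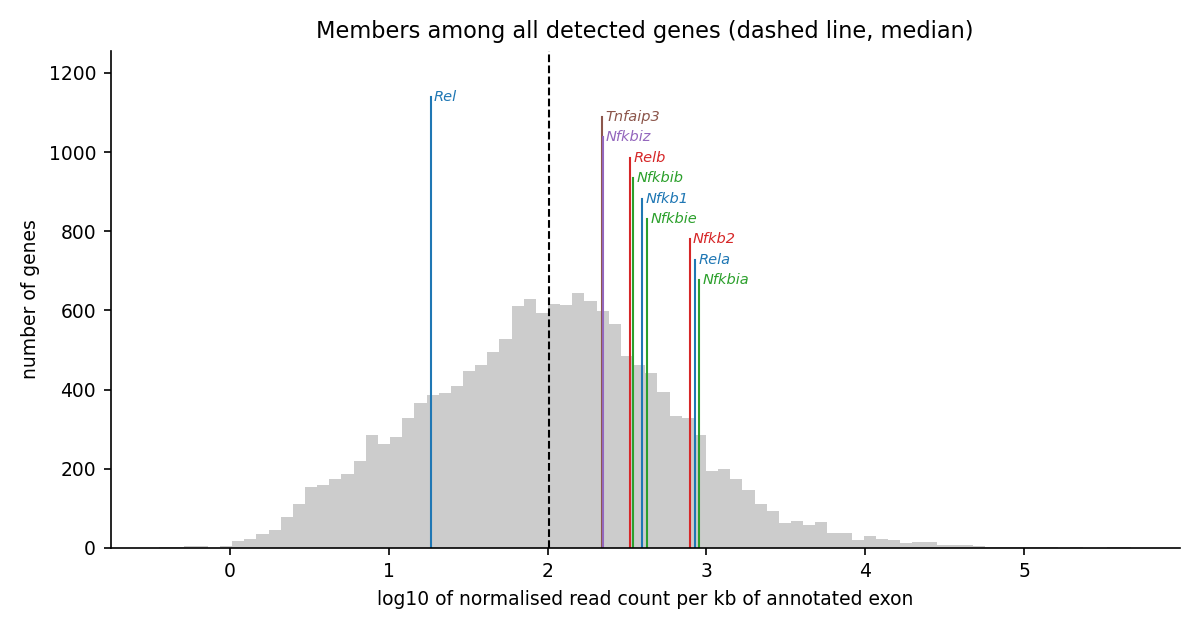
Histogram of detected genes by the log10 of normalised read count per kb of annotated exon, with a vertical line for each of the 10 NFκB genes and a dashed line at the median of detected genes. Rel lies on the left at 18.4 per kb, and the other 9 lie to the right of the median, from 222 (Tnfaip3) to 904 (Nfkbia) per kb.

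Promoters of the members were searched for the κB consensus, the decamer that NFκB dimers bind, in windows from 250 bases before to 50 bases after the RefSeq start (GRCm38.p6). Of the 10 genes, 7 had a window, with 10 windows in all; Nfkb1, Relb and Nfkbiz had none. A match on either strand was present for 5 of the 7 genes: Rel, Nfkb2, Nfkbia, Nfkbie and Tnfaip3. Rela and Nfkbib had no match. Across the 27025 genes with windows, 9.55% held a match, and 12.2% of the detected ones did. The 130 bases before the start are shown for 4 of these genes because each holds its matches in this stretch, on the gene's own strand and with the matched bases in capitals. They are chr12:55492648-55492777 (minus strand) for Nfkbia, chr17:45555570-45555699 (plus strand) for Nfkbie, chr10:19015411-19015540 (minus strand) for Tnfaip3 and chr11:23770970-23771099 (minus strand) for Rel.
Nfkbia: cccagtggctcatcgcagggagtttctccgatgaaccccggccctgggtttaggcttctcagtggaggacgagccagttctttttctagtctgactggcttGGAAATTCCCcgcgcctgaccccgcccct
Nfkbie: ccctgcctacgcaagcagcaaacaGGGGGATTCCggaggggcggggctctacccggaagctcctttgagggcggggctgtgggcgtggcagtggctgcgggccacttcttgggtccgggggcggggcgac
Tnfaip3: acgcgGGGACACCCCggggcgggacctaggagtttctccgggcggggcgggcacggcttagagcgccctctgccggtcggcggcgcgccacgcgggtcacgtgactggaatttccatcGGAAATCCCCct
Rel: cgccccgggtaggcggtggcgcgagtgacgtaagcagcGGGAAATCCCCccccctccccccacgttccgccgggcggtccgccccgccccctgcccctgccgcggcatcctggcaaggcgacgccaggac

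Counting the start base as 0, the match of Nfkbia lies at -29 to -20 and that of Nfkbie at -106 to -97, both outside annotated exons and introns of the gene. Tnfaip3 has a match at -125 to -116 and another at -12 to -3; both lie in an intron of a longer annotated transcript. In Rel, overlapping matches on the 2 strands occupy -92 to -82, outside the annotated gene. Per kb of annotated exon, the genes with a match ranged from 18.4 (Rel) to 904 (Nfkbia). Those with a window but no match were Rela at 854 and Nfkbib at 345. Whether a match goes with the level was not tested. A match is a run of letters and not evidence that a factor was bound.

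Nfkb2 has 3 annotated RefSeq starts and 4 distinct matching stretches, more than any other member. More windows were searched for it than for any other member, so these counts are not per window. Its sites are shown singly with short flanks, again with the matched bases in capitals. Site a lies at chr19:46304698-46304708 and site b at chr19:46304726-46304735, at -39 to -29 and -11 to -2 from the first start, both within an exon of a longer annotated transcript. Site c lies in an intron at chr19:46305459-46305468, at -236 to -227 from the next start. Site d, at chr19:46305705-46305714, is exonic and lies at 10 to 19 from that start and at -225 to -216 from the most downstream one.
Nfkb2 site a: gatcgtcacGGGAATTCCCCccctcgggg
Nfkb2 site b: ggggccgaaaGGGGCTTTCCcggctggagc
Nfkb2 site c: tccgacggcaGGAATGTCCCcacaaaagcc
Nfkb2 site d: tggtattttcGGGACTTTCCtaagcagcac

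Base composition and other motifs were also read from the windows. GC content ranged from 47% to 75% over the 10 windows, with 9 of the 10 windows above the median of 52.7% over all windows and 1 window of Tnfaip3 below it. The GC box GGGCGG was present for 6 of the 7 genes, against 38.2% of all genes with windows and 65.0% of the detected ones. The AP-1 letters TGANTCA were present for 3 of the 7 (Nfkb2, Nfkbie and Tnfaip3), against 8.97% of all genes and 6.91% of the detected ones. Under a looser κB pattern, which fixes only the leading G and trailing C bases, 6 of the 7 genes matched, but so did 53.5% of all genes and 70.2% of the detected ones. Under a stricter κB consensus with A or T at position 6, the same 5 genes matched, against 5.14% of all genes and 6.31% of the detected ones.

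**Figure D4:**
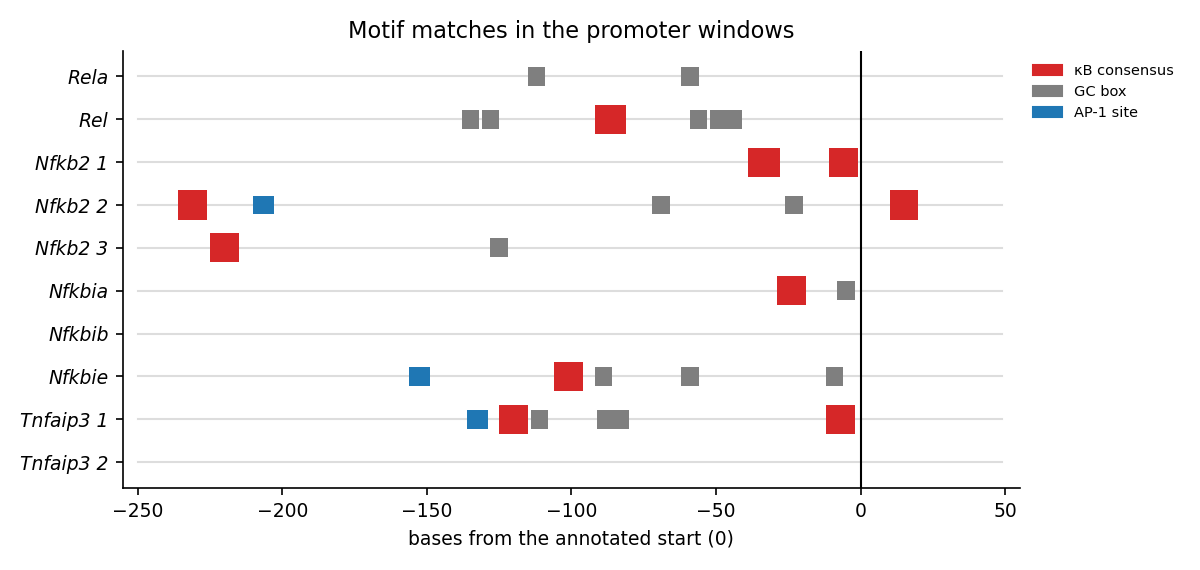
Matches to the κB consensus (red), the GC box (grey) and the AP-1 letters (blue) in the 10 promoter windows of 7 NFκB genes, by distance in bases from the annotated start at 0; genes with several starts have a row for each. Matches to the κB consensus lie within 130 bases before the first start in Rel, Nfkb2, Nfkbia, Nfkbie and Tnfaip3, and Rela and Nfkbib have none.

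Other genes of the pathway numbered 80, of which 72 were detected and 48 lay above the median detected gene per kb of annotated exon. Their median was 1.53 times that of detected genes, against 3.62 for the members. A κB consensus match was found for 7 of 11 canonical target genes with a window (Il6, Cxcl1, Cxcl2, Cxcl10, Sod2, Csf1 and Ier3), for 3 of 4 genes encoding A20 partners (Tnip1, Tnip3 and Tax1bp1) and for 2 of 3 other atypical IκB genes (Bcl3 and Nfkbid), beside the 9.55% of all genes and 12.2% of detected genes given above. In the other lists it was found for 2 of 6 canonical receptor and ligand genes (Il1r1 and Tlr2), 2 of 11 canonical adaptors (Irak1 and Map3k7) and 1 of 5 linear ubiquitin genes (Cyld). Among noncanonical lists it was found for 1 of 5 control genes (Traf3), 1 of 5 ligand genes (Ltb), 1 of 6 target genes (Madcam1) and none of 5 receptor genes, and it was found in none of 4 IKK-family genes. Each list holds few genes, and no test of these counts was run.

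The kinases that act on these members were all detected. Ikbkb and Chuk encode the catalytic subunits IKKβ and IKKα, and Ikbkg the scaffold NEMO. Chuk was at 185 per kb of annotated exon and 269 per kb of RefSeq exon. Ikbkb was at 79.6 per kb of annotated exon, a union of 19.1 kb, and at 335 per kb of RefSeq exon, 4.53 kb. Its ratio to Chuk was therefore 0.430 on the first length and 1.25 on the second. Ikbkg was at 119 and 133 per kb, with 5.15% of its exons overlapping G6pdx on the opposite strand. The IKK-related kinases had the higher levels: Tbk1 was at 407 and 526 per kb and Ikbke at 236 and 653 per kb. Over the 5 kinase genes the median was 1.81 times that of detected genes per kb of annotated exon, below the 3.62 of the 10 members. Undivided by length the order turned, with a median value of 1518 for the kinases and 1374 for the members.

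Control of the noncanonical branch was represented by Map3k14, which encodes NIK, and by the TRAF and cIAP proteins that keep NIK low. Map3k14 had a value of 434, equal to 66.3 per kb of annotated exon and 102 per kb of RefSeq exon, above 40.1% and 42.2% of detected genes. Nfkb2 exceeded it 11.9-fold and 10.96-fold on these lengths. Traf3 was at 182 and 187 per kb, Traf2 at 116 and 194, Birc2 at 140 and 192, and Birc3, itself a known NFκB target, at 153 and 287. The list median was 1.36 times that of detected genes. All 4 regulators of NIK were above Map3k14 under both lengths.

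Receptors and ligands of the noncanonical branch differed widely. All 6 receptor genes were detected, led by Tnfrsf12a (the TWEAK receptor Fn14) at 1002 per kb of annotated exon, Tnfrsf1b (TNF receptor 2) at 950 and Ltbr (lymphotoxin β receptor) at 674. Tnfrsf11a (RANK) was at 264, Cd40 at 60.8 and the B-cell receptor gene Tnfrsf13c (BAFF receptor) at 16.6. The receptor median was 4.58 times that of detected genes and the ligand median 0.058 times. Tnf, the ligand gene of TNF receptor 2, was at 494 per kb but was placed in the canonical list, so the contrast depends partly on list assignment. Of the 7 ligand genes, 3 were detected. Tnfsf12 (TWEAK) had a value of 480 and Tnfsf13b (BAFF) of 332, but Lta stood at 22, Ltb at 9, Tnfsf14 at 3 and Tnfsf11 (RANKL) at 1, and Cd40lg was listed at 0. Of the Tnfsf12 exons, 48.2% overlap the readthrough gene Tnfsfm13 on the same strand, and the value of Tnfsfm13 was 1190.

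Canonical receptors and ligands were each detected, 8 of 8. Cd14, the lipopolysaccharide co-receptor, was highest at 2994 per kb of annotated exon, and Tlr2 was at 1769, whereas Tlr4 was at 45.9. Tnfrsf1a (TNF receptor 1) was at 1300 and its ligand gene Tnf at 494. For the IL-1 system the ligands Il1b and Il1a were at 261 and 95.7, and the receptor gene Il1r1 was at 14.9, above 15.7% of detected genes. The list median was 3.68 times that of detected genes. The 13 adaptor genes were likewise all detected, with Tab2 (544), Myd88 (367) and Irak1 (363) highest and Traf6 lowest at 29.7 per kb, and a median 1.78 times that of detected genes.

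Partners of A20 stood above A20 itself in several cases. Tnip1 (ABIN1, an A20-binding inhibitor) was at 1933 per kb of annotated exon, 8.72 times Tnfaip3, and Tax1bp1 at 611, 2.76 times; per kb of RefSeq exon the ratios were 6.48 and 5.33. Tnip2 was at 339, Rnf11 at 223, Itch at 137 and Tnip3 at 80.3 per kb of annotated exon, and 5 of these 6 partners lay above the median detected gene. Among linear ubiquitin enzymes, Otulin, which removes such chains, was at 813, the assembly subunits Rbck1 and Sharpin were at 340 and 277, the catalytic subunit gene Rnf31 was at 91.0, and Spata2 and Cyld were at 60.3 and 48.7, so that 3 of 6 lay above the median. Of the other atypical IκB genes, Bcl3, a partner of p50 and p52, was at 325, Nfkbid at 76.3 and Ankrd42 at 21.6 per kb.

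Target genes known for each branch gave contrasting levels. Of 16 canonical targets, 15 were detected and 11 lay above the median detected gene, with Icam1 (887 per kb of annotated exon), Ccl2 (671) and Csf1 (470) highest. The list median was 1.58 times that of detected genes per kb of annotated exon, but 0.865 times for undivided values. Nos2, which encodes inducible nitric oxide synthase, had a value of 7 and was under the detection minimum. Of 6 noncanonical targets, 3 were detected and none lay above the median: Tnfsf13b was at 48.3, Cxcl13 at 24.4 and Cxcl12 at 20.4 per kb, Madcam1 had a value of 3, and Ccl19 and Ccl21a were listed at 0. The chemokine genes Ccl19, Ccl21a and Cxcl13 are best known in lymphoid stroma. Tnfsf13b was also counted in the list of noncanonical ligands.

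**Figure D5:**
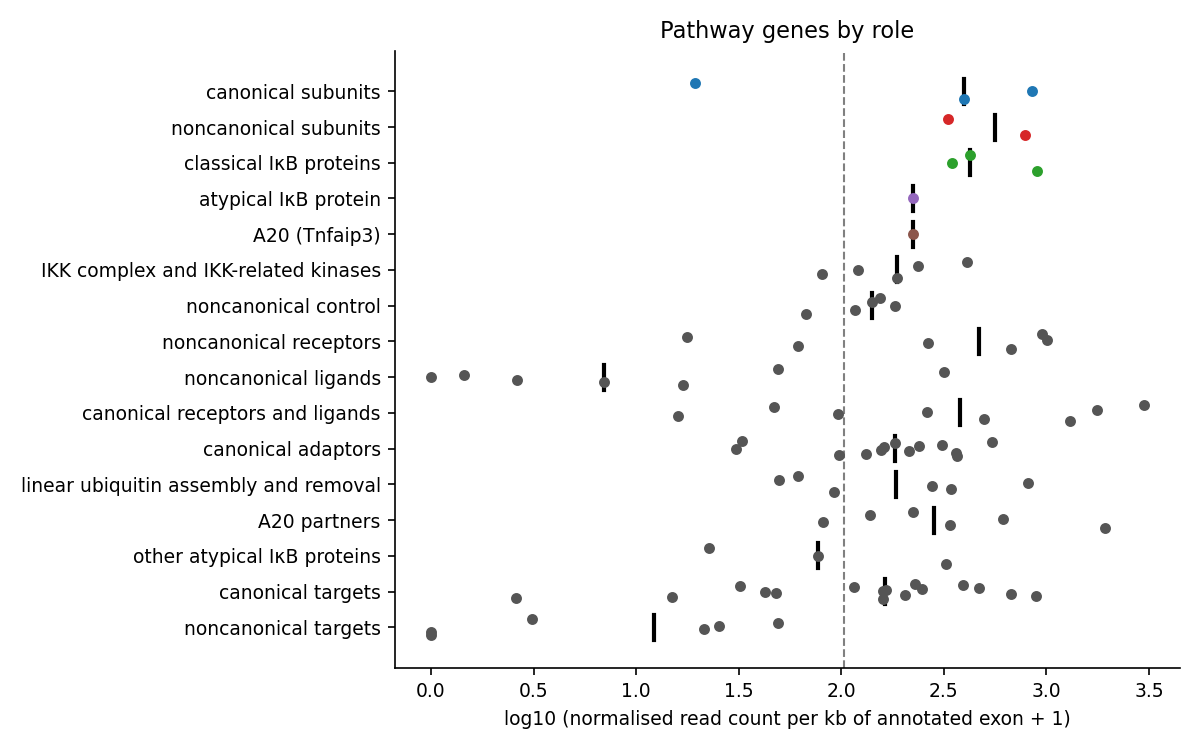
Each point is 1 gene, placed by the log10 of its normalised read count per kb of annotated exon plus 1 and grouped by role; black ticks are list medians and the dashed line is the median of detected genes. The noncanonical ligands and noncanonical targets have medians of 5.94 and 11.3 per kb, against 559 for the noncanonical subunits and 469 for the noncanonical receptors. Tnf is grouped with the canonical receptors and ligands, and Tnfsf13b is in both the noncanonical ligand and the noncanonical target list.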

How the data were processed

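Total RNA from 1 control culture was isolated with Trizol, and the library was built with the SMARTer chemistry. The study's methods state that low-quality bases (under 20) were removed, that STAR aligned the reads to GRCm38/mm10, and that HTSeq-count assigned them to exons of the NCBI RefSeq annotation (Release 105). The submitters' processing notes name TopHat and edgeR instead, and versions, strand setting and the normalisation of the deposited values were not given in the sources used here. The study's methods also mention FPKM, a level already scaled by exon length. Whether the deposited values had been scaled in that way was not stated. If they had been, division by exon length would apply that scaling again. The undivided values would then be those to compare between genes. The deposited values, which the authors call normalised read counts, were whole numbers scaled in an unstated way and were therefore handled as a score. A scaling that moves all genes alike would change neither values per 1000000 nor ratios between genes.

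Of 23282 rows, 22911 (98.4%) were matched by symbol or synonym to GENCODE release M21, and 22591 (97.0%) had a transcript matched to RefSeq. With 1 library no test was run. The members and lists were chosen with earlier results of these data known. All 10 members and all genes of lists with up to 8 genes were eligible for naming, and in longer lists the 3 highest, the lowest and those at 0. Genes listed beside promoter counts were named for their match. Promoter sequences are RefSeq (GRCm38.p6), and the bases after the start were found in a GENCODE transcript for 7 of 10 windows. The percentile and motif code was tested on simulated data. Alternatives were other gene lengths, detection minima of 1 and 100, other reference genes, other totals and other motif definitions; an alternative value was taken as moved when it differed by 1.5 times or more, or by 5 percentile points or more. Python 3.11.15, numpy 2.4.6, pandas 2.3.3 and matplotlib 3.10.9 were used. The lymphocyte list is not reported here in full.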

Additional observations from a re-analysis of the deposited data

How the results depend on the processing

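Of 129 recomputed values, 107 stayed within the limits set and 22 moved. The number of detected members (10) was the same at minima of 1 and 100, the number of genes with a κB consensus match changed from 5 to 6 at most, and none of the 20 values per 1000000 moved when Rn45s or the 10 highest genes were left out of the sum. The noncanonical share of the subunit level moved only with geometric means, to 73.5%, and the classical IκB to subunit ratio only without division by length, to 0.281. That ratio was nonetheless sensitive to the length: it fell from 0.702 to 0.469 per kb of RefSeq exon, just inside the limit. RefSeq-matched exons were added as an alternative after the lengths of the exon unions had been seen.

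List medians are given relative to the median of detected genes. Without division by length they moved to 2.76 for classical IκB genes, 3.24 for IKK-family kinases, 0.0192 for noncanonical ligands, 1.39 for canonical receptors and ligands, 0.382 for other atypical IκB genes, 0.865 for canonical targets and 0.0331 for noncanonical targets. The canonical subunit median moved to 6.997 per kb of the longest transcript and 6.57 per kb of RefSeq exon. Keeping detected genes only raised noncanonical ligands to 0.472 and noncanonical targets to 0.238, since it removes the lowest genes.

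The percent of detected genes below a member moved without division by length to 93.8 for Nfkb1, 27.6 for Rel, 76.8 for Nfkbia, 60.8 for Nfkbib, 74.2 for Nfkbie and 78.8 for Tnfaip3. Per kb of RefSeq exon it moved to 88.6 for Nfkb1 and 69.8 for Nfkbib. Against genes at 1 or more it moved to 29.5 for Rel. The cause was not tested, beyond the exon lengths given for Nfkb1. The lack of a replicate and the unknown read depth limit each value to this library.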
